A study of Mus musculus with 360 samples.

Results

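Tnfsf11, Tnfrsf11b, Csf1, Il34, Ccl2 and Cx3cl1 are 6 genes by which stromal cells of bone act on osteoclasts and their precursors. They were taken by name from the 24015 genes of the single-cell tables, with earlier results of these data known. The cells came from wild type CD-1 mice at postnatal day 3 and from 4 tissues: 3 cranial sutures, named posterior frontal (PF), coronal (COR) and sagittal (SAG), and the tibial growth plate (GP). They were sorted as CD51+;CD200+ skeletal stem/progenitor cells, with CD45, Ter119, Tie2, CD105, 6C3 and Thy1 used to gate other cells out, and 1 cell went into each well of a multiwell plate. Each tissue was spread over 2 plates. Of 360 cells, 325 passed a filter of at least 500 genes and 10000 reads, of which 87 were PF cells, 86 SAG cells, 78 GP cells and 74 COR cells.

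The mice were pooled and no animal is named for any cell, so each tissue is 1 sample: no value below has a biological replicate and none carries a p-value. The 2 plates of a tissue give the only repeat, and a plate cannot be told apart from whatever sort or library preparation it went through. Intervals are exact 95% intervals, Poisson for reads and binomial for shares of cells, and cover the counting of reads or cells only. The reads carry no molecular identifiers and those of 1 cell are not independent. Intervals on reads and on ratios of reads are therefore too narrow as intervals for transcripts. Where no cell had a read, the share said to be allowed is instead that of 3 cells over the cells measured, which is somewhat below the exact upper bound. Fewer cells with a transcript and less transcript in each cell both lower a summed level, so reads and numbers of cells are given side by side.

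RANKL, encoded by Tnfsf11, is the ligand that drives osteoclast precursors to become osteoclasts through its receptor RANK (Tnfrsf11a), and OPG, encoded by Tnfrsf11b, is a secreted decoy that binds RANKL and keeps it from RANK. Csf1 and Il34 encode the 2 ligands of the receptor CSF1R, on which the survival and growth of osteoclast precursors depend. Ccl2 and Cx3cl1 encode chemokines that draw monocytes through CCR2 and CX3CR1, and fractalkine, the Cx3cl1 product, also works as a membrane-bound adhesion molecule. In cranial sutures and growth plates, osteoclasts shape the bone fronts and remove mineralized cartilage.

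In the mm9 build, Tnfsf11 lies on the minus strand at chr14:78677252-78707850, Tnfrsf11b on the minus strand at chr15:54082174-54110039 and Csf1 on the minus strand at chr3:107543966-107563387. Il34 lies on the minus strand at chr8:113265729-113329824, Ccl2 on the plus strand at chr11:81849073-81850955 and Cx3cl1 on the plus strand at chr8:97295909-97306323. Il34 overlaps 2 annotated genes on the opposite strand and Ccl2 overlaps 1, and whether the counting used strand is not given in the sources used here, so a read of an overlapping gene could have been counted with them.

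Plate 2 of SAG stood apart. The ribosomal RNA gene Rn45s took 86.8% of its reads, against 20.2% to 31% on the other 7 plates, and its cells had a median of 875 genes, against 2111.5 to 3867 elsewhere. Levels are therefore given as reads per 1000000 reads other than Rn45s (RPM), and the SAG calls of the 6 genes are also given without that plate. Of 22 calls between SAG and another tissue among the pathway genes below, 17 were kept without it and the 5 that ended are named. The sorted cells carried skeletal genes, with reads of Col1a2 in 317 cells and of Runx2 in 149. Of 13 blood cell genes 5 had no read (C1qa, C1qb, Itgam, Emr1 and Spi1), as had 5 of 8 endothelial genes (Pecam1, Tek, Tie1, Emcn and Cldn5), which allows up to 0.923% of cells for each. Ptprc (CD45) was read in 5 cells, Laptm5 in 13, of which 9 were GP cells, Egfl7 in 12, of which 6 were COR cells, and Kdr in 5. The blood genes summed to 25.8 RPM in GP, 18.9 in PF, 4.90 in COR and 3.25 in SAG, and the endothelial genes to 17.3 in COR, 16.7 in SAG, 4.49 in PF and 1.72 in GP. Their part in the results below was not tested.

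Csf1 was the most widely read of the 6 genes, in 86 of 325 cells (26.5%, interval 21.7 to 31.6). Cx3cl1 was read in 16 cells (4.92%, 2.84 to 7.87), Tnfsf11 in 15 (4.62%, 2.61 to 7.50), Il34 in 12 (3.69%, 1.92 to 6.36), Tnfrsf11b in 11 (3.38%, 1.70 to 5.98) and Ccl2 in 3 (0.923%, 0.191 to 2.67). None of the 6 was read in 209 cells, while 93 cells had reads of 1 gene, 19 of 2 and 4 of 3. Per kilobase of exon, summed over all 325 cells, Csf1 stood at 12.8 reads per kilobase and 1000000 reads (RPKM), Cx3cl1 at 5.68, Tnfsf11 at 4.42, Il34 at 4.03, Tnfrsf11b at 2.34 and Ccl2 at 0.439. The lengths are those of the GENCODE M1 annotation of mm9 and may differ from the annotation behind the counts.

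**Figure D1:**
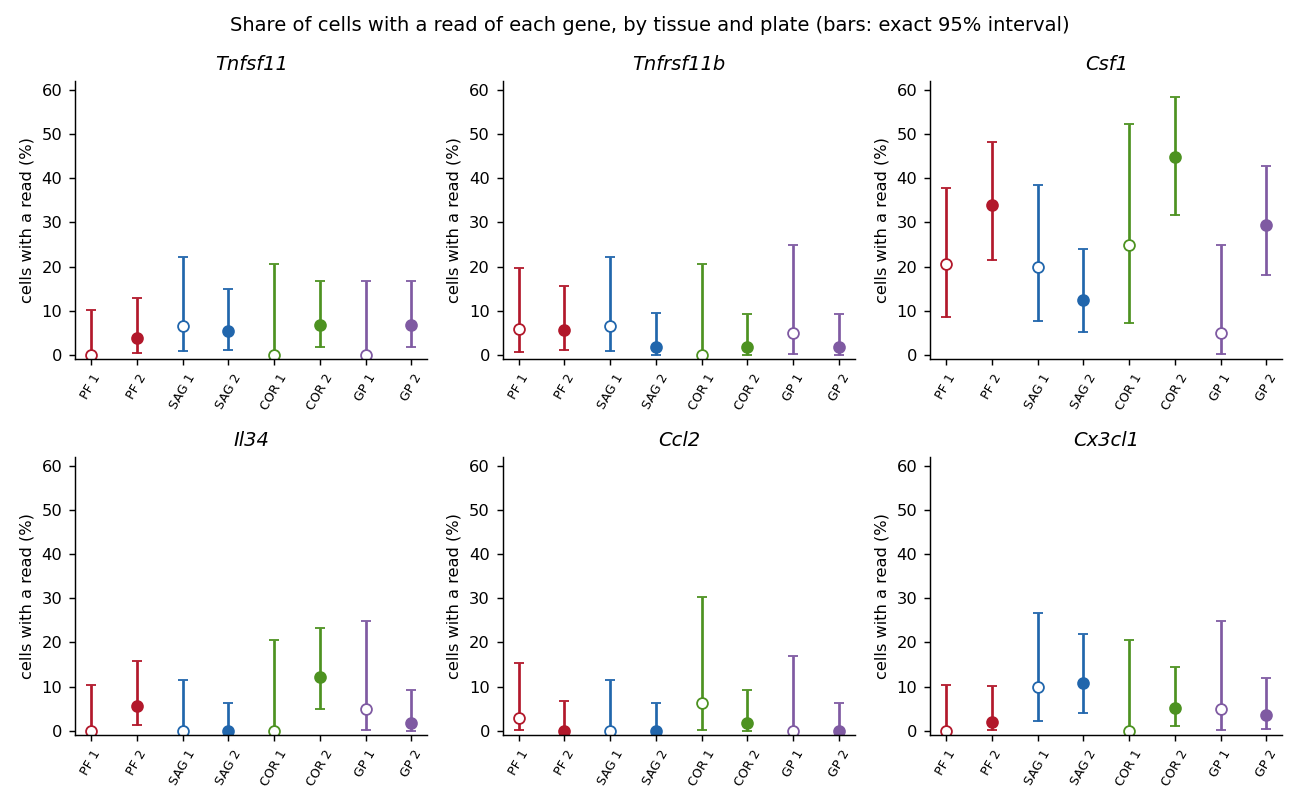
Percent of cells with at least 1 read of each gene (y axis) on each plate of each tissue (x axis; open points plate 1, filled points plate 2). Bars are exact 95% binomial intervals; Csf1 spans 5% to 44.8% of cells over the plates, and no plate exceeds 12.1% for the other 5 genes.

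A gene was called between a pair of tissues where the log2 ratio of its RPM, with 1 RPM added to both, was at least 1 in size and all 4 plate-against-plate ratios had the same sign. Of the 6 genes, 5 reached 10 RPM in some tissue and could be called, and Ccl2 did not. Between PF and SAG 3 of the 5 were called, against 29.2% of all 10686 genes tested, and between PF and COR 1 was called, against 11.9%. Between SAG and COR 2 were called against 31.5%, between PF and GP 2 against 16.2%, between SAG and GP 2 against 30.7%, and between COR and GP 0 against 13.4%. The median gene shifted by 0.30 (log2) in favour of PF over SAG and by 0.25 and 0.30 in favour of GP and COR over SAG, and by less than 0.1 in the other 3 pairs.

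By tissue total, Tnfsf11 was lowest in PF, and SAG and GP had the highest levels. In SAG, 5 cells held its reads, with 72 and 36 reads on plate 1 and 128, 93 and 63 on plate 2, which came to 22.8 RPM (interval 20.6 to 25.1). In GP, 4 cells of plate 2 held 255, 111, 79 and 8 reads, which came to 15.9 RPM (14.5 to 17.5). In COR, 4 cells of plate 2 held 104, 65, 9 and 6 reads, which came to 5.74 RPM (4.94 to 6.64). In PF, 2 cells of plate 2 held 25 and 14 reads, which came to 1.29 RPM (0.915 to 1.76). The blood cell genes summed to 583, 39.9, 0 and 224 RPM in the 4 GP cells, in the order given, and to 0 and 109 in the 2 PF cells. They were at 0 in the SAG and COR cells with Tnfsf11 reads, and their part in the Tnfsf11 levels was not tested.

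By plate, the Tnfsf11 level was 15.7 and 27.5 RPM for SAG, 0 and 19.3 for GP, 0 and 6.39 for COR and 0 and 1.60 for PF. SAG was the tissue in which both plates had reads, and its plates lay above both plates of COR and PF but overlapped those of GP. The first plates of PF, COR and GP had no read in 34, 16 and 20 cells, with exact upper bounds of 10.3%, 20.6% and 16.8% of their cells. PF was not called lower than COR or GP for Tnfsf11, with plate ratios from -2.89 to 1.38 and from -4.34 to 1.38. Tnfsf11 was called higher in SAG than in PF, with a log2 ratio of PF to SAG of -3.38 (plate ratios -4.83 to -2.68). It was also called higher in SAG than in COR, with a log2 ratio of SAG to COR of 1.82 (1.18 to 4.83). Without plate 2 of SAG both calls were kept, at -2.87 and 1.31, and SAG then stood at 15.7 RPM beside 15.9 in GP. With Rn45s counted in the totals, SAG stood at 4.50 and GP at 11.1 per 1000000 reads, the SAG to COR ratio was 0.07 and was no longer a call, and the PF to SAG ratio was -1.50. With each cell given the same weight the PF to SAG ratio was -1.35, so its direction and its call were kept but not its size.

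The shares of cells told less. Tnfsf11 was read in 5.81% of SAG cells (interval 1.91 to 13), 5.41% of COR cells (1.49 to 13.3), 5.13% of GP cells (1.41 to 12.6) and 2.3% of PF cells (0.280 to 8.06), and all 4 intervals overlapped. After each cell was thinned to 100000 reads other than Rn45s, the shares were 6.25%, 5.63%, 4.48% and 0 of 70 PF cells, which allows up to 4.29%. Among the cells with a read, the median was 268 RPM in the 5 SAG cells, 347 RPM in the 4 GP cells, 71.1 RPM in the 4 COR cells and 412 RPM in the 2 PF cells. One of the 2 PF cells had 836 genes and 31704 reads other than Rn45s, so its 25 reads came to 789 RPM.

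Tnfrsf11b had the reverse order at its top, with PF highest. In PF, 2 cells of plate 1 held 64 and 54 reads and 3 cells of plate 2 held 138, 126 and 18, which came to 13.2 RPM (interval 11.9 to 14.6). In COR a single cell of plate 2 held 137 reads, 4.28 RPM (3.59 to 5.06). In SAG, 2 cells of plate 1 held 48 and 22 reads and 1 cell of plate 2 held 2, together 4.18 RPM (3.27 to 5.27). In GP, 1 cell on each plate held 51 and 52 reads, 3.62 RPM (2.95 to 4.39).

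By plate, the Tnfrsf11b level was 19.9 and 11.6 RPM for PF, 10.3 and 2.21 for GP, 10.2 and 0.193 for SAG and 0 and 4.76 for COR, so both PF plates lay above all 6 others. COR, SAG and GP overlapped one another. The gene was called higher in PF than in SAG, COR and GP, with log2 ratios of 1.45 (plate ratios 0.17 to 4.13), 1.43 (1.13 to 4.39) and 1.62 (0.15 to 2.71). The first depended on plate 2 of SAG: without it the ratio was 0.34 and was not a call. The last depended on plate 2 of GP, without which it was 0.33. In cells, these calls rested on 5 of 87 in PF (5.75%, 1.89 to 12.9), 3 of 86 in SAG (3.49%, 0.725 to 9.86), 1 of 74 in COR (1.35%, 0.0342 to 7.30) and 2 of 78 in GP (2.56%, 0.312 to 8.96), with intervals that overlapped.

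**Figure D2:**
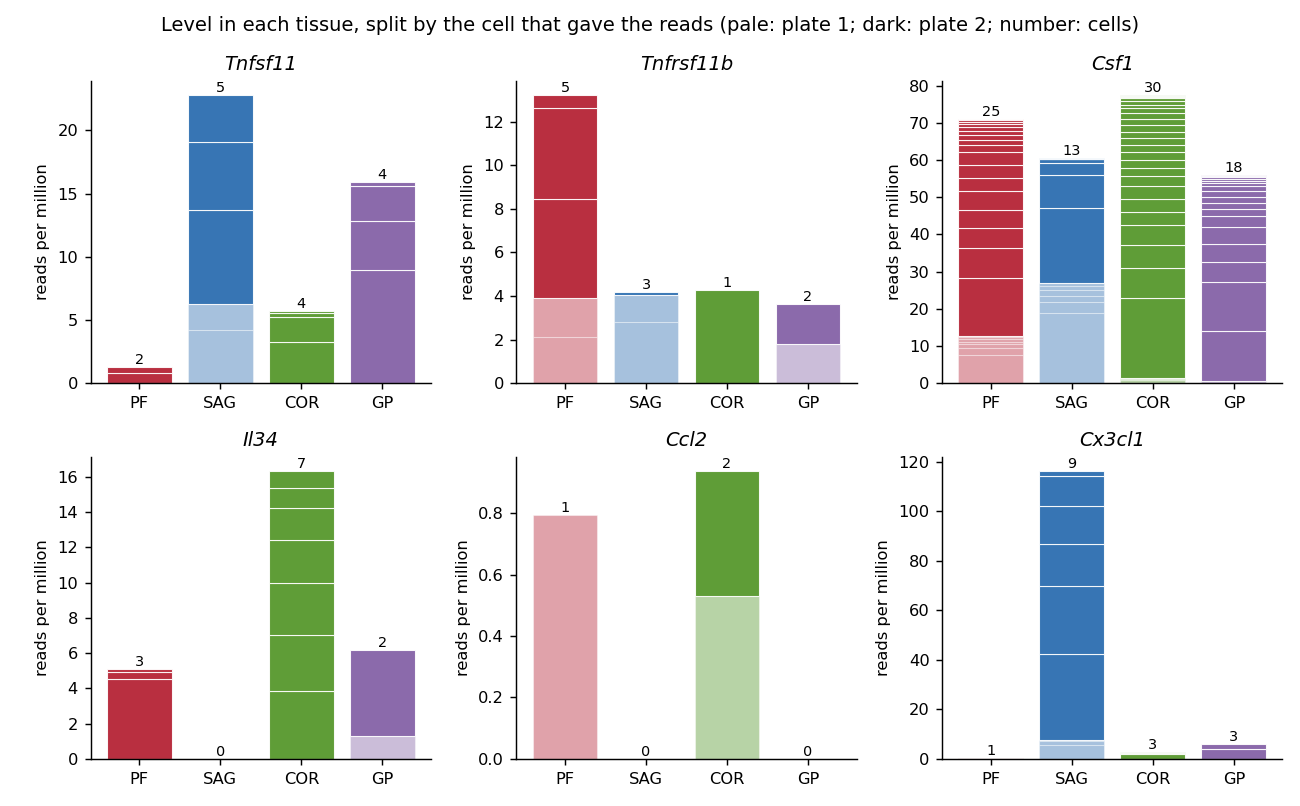
Level of each gene in each tissue in RPM (y axis, a separate scale in each panel), with each bar cut into the parts that single cells gave. Pale parts are plate 1, dark parts plate 2, and the number above a bar counts the cells with a read; plate 2 gave 1873 of the 2002 Cx3cl1 reads of SAG, and no bar of Tnfsf11, Tnfrsf11b, Il34 or Ccl2 rests on more than 7 cells.

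The ratio of RANKL to OPG reads addresses the balance of the ligand and its decoy in each tissue. In PF there were 39 Tnfsf11 reads to 400 Tnfrsf11b reads, a ratio of 0.0975 (interval 0.0683 to 0.136). In COR there were 184 to 137, a ratio of 1.34 (1.07 to 1.69). In GP there were 453 to 103, a ratio of 4.40 (3.54 to 5.50), and in SAG 392 to 72, a ratio of 5.44 (4.23 to 7.10). Per length of transcript the 4 ratios were 0.123, 1.69, 5.54 and 6.86.

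On the plates the balance was less even than these intervals imply. In PF, OPG reads exceeded RANKL reads on both plates, at 0 to 118 and 39 to 282. In SAG, RANKL reads exceeded OPG reads on both, at 108 to 70, a ratio of 1.54 (1.13 to 2.12), and at 284 to 2, a ratio of 142. In GP the plates went opposite ways, with 0 to 51 on plate 1 and 453 to 52 on plate 2, a ratio of 8.71. In COR all reads of either gene were on plate 2. PF was thus the tissue with more OPG than RANKL reads on both plates and SAG the tissue with more RANKL than OPG reads on both, and COR and GP could not be placed. The PF ratio rested on 7 cells and the SAG ratio on 8. On plate 1 these were 2 cells with OPG reads in PF and 2 cells with reads of each gene in SAG. Reads of 1 cell are not independent, so the plates agreed in direction on few cells only.

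No cell had reads of both genes. Tnfsf11 was read in 15 cells and Tnfrsf11b in 11 others, and 0 of 325 had both, which allows up to 0.923%. The product of their 2 shares comes to 0.508 cells, so a count of 0 says little about whether the genes exclude each other. Over the 325 cells, after each plate's mean was subtracted, Pearson's r of log2(RPM + 1) was -0.03, a description over cells that share plates and in which 299 had neither gene.

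**Figure D3:**
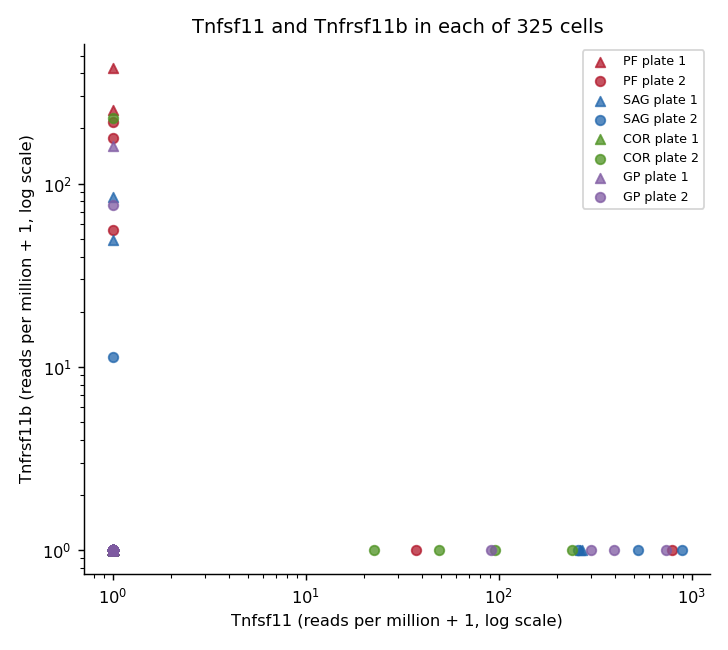
Tnfsf11 (x axis) and Tnfrsf11b (y axis) in RPM, plus 1, on log scales, 1 point for each of 325 cells. Triangles are plate 1 and circles plate 2; the 15 cells with Tnfsf11 reads lie along the x axis, the 11 with Tnfrsf11b reads along the y axis, and the other 299 at the origin.

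Csf1, the main growth factor for the osteoclast lineage, was at like levels in the 4 tissues. It stood at 77.3 RPM in COR (interval 74.3 to 80.5), 71.1 in PF (68.1 to 74.1), 60.4 in SAG (56.8 to 64.2) and 56 in GP (53.3 to 58.8), and no pair of tissues was called. By plate the values were 13 and 84.6 RPM in COR, 65.6 and 72.4 in PF, 67.5 and 55.7 in SAG and 3.44 and 67 in GP. The plates of COR and of GP thus differed more within the tissue than the tissue totals differed from each other, and on plate 1 of GP only 1 of 20 cells had Csf1 reads.

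The share of cells with Csf1 differed more than its level. It was read in 30 of 74 COR cells (40.5%, interval 29.3 to 52.6), 25 of 87 PF cells (28.7%, 19.5 to 39.4), 18 of 78 GP cells (23.1%, 14.3 to 34) and 13 of 86 SAG cells (15.1%, 8.30 to 24.5). At full depth the COR and SAG intervals did not overlap, and those of each pair of neighbours in this order did. The median cell had 448803 reads other than Rn45s in COR, 312083 in PF, 369308 in GP and 184673 in SAG, so COR and SAG were the ends of both orders, while PF had the higher share and the lower depth of the middle pair. In cells thinned to 100000 reads the shares were 33.8% in COR (24 of 71), 31.4% in PF, 25.4% in GP and 16.3% in SAG (13 of 80). No intervals were formed for thinned cells, so whether COR and SAG stand apart at equal depth was not tested. Left unthinned, the share was 20% (7.71 to 38.6) on plate 1 of SAG and 25% (7.27 to 52.4) on plate 1 of COR.

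Among cells with a Csf1 read, the amount ranged widely. It ran from 2.70 to 2393 RPM in COR with a median of 99.8, from 4.68 to 1165 in PF with a median of 165, from 4.93 to 1691 in SAG with a median of 136 (150 on plate 1 alone) and from 8.69 to 818 in GP with a median of 108. A single cell gave 33.3% of the SAG reads, 28% of those of COR, 23.8% of those of GP and 21.6% of those of PF. Csf1 was the gene of the 6 read in enough cells to rank other genes by likeness. Over the 325 cells and 7707 genes read in at least 10% of them, the highest plate-centred Pearson's r with Csf1 were those of Anapc4 (0.25), Cotl1 (0.25), Cp (0.24), Dhrs1 (0.24) and Ahcyl1 (0.23). These are weak values in sparse counts, as 5% of the ranked genes lay above 0.14, and cells with Csf1 reads also had more genes.

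Il34, the second ligand of CSF1R, was found mainly in COR and not in SAG. In COR, 7 cells of plate 2 held 123, 103, 94, 78, 58, 36 and 31 reads, 16.3 RPM (interval 15 to 17.8). In GP, 1 cell on each plate held 37 and 139 reads, 6.18 RPM (5.30 to 7.17). In PF, 3 cells of plate 2 held 138, 12 and 4 reads, 5.08 RPM (4.31 to 5.95). In SAG, 0 of 86 cells had a read, which allows up to 3.49% of cells, and plate 1 alone, at 0 of 30, allows up to 10%.

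The Il34 share was 9.46% of COR cells (3.89 to 18.5), 3.45% of PF cells (0.717 to 9.75) and 2.56% of GP cells (0.312 to 8.96). Plate 1 of COR, with 16 cells, had no read, so COR was called against no other tissue. SAG, at 0 RPM, was called lower than GP, but the GP reads came from 2 cells of 78, a share below the 3.49% that SAG allows, and the call ended without the richest cell of each tissue. PF drew 89.6% of its Il34 reads from 1 cell.

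The chemokine Ccl2 was close to absent from these cells. Its reads were 24 in 1 PF cell of plate 1, 17 in 1 COR cell of plate 1 and 13 in 1 COR cell of plate 2. SAG and GP had 0 reads in 86 and 78 cells, which allows up to 3.49% and 3.85% of cells. All 3 cells with Ccl2 also had reads of Csf1, of Runx2, an early regulator of osteoblasts, and of Acta2, a smooth muscle actin. Among the cells without Ccl2, 45.3% had Runx2 and 22.4% had Acta2. The summed osteoblast markers did not follow Runx2: their median was 37481 RPM in the 3 cells against 82320 in the others, and 0 of 3 lay above the middle of their plates, while 3 of 3 did so for the summed pericyte and smooth muscle markers.

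Cx3cl1 was highest in SAG, where 9 cells had reads. Plate 1 of SAG had 3 cells with 95, 33 and 1 reads and plate 2 had 6 with 602, 469, 293, 268, 204 and 37, together 116 RPM (interval 111 to 122). GP had 1 cell with 2 reads on plate 1 and 2 cells with 116 and 52 on plate 2, 5.97 RPM (5.11 to 6.94). COR had 3 cells of plate 2 with 68, 14 and 13 reads, 2.97 RPM (2.40 to 3.62), and PF had 1 cell of plate 2 with 8 reads, 0.264 RPM (0.114 to 0.520).

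By plate, Cx3cl1 stood at 18.8 and 181 RPM in SAG, 0.405 and 7.14 in GP, 0 and 3.30 in COR and 0 and 0.328 in PF, and both SAG plates lay above the 6 others. It was called higher in SAG than in PF, COR and GP. The log2 ratio was -6.54 for PF to SAG (plate ratios -7.51 to -3.90), 4.89 for SAG to COR (2.20 to 7.51) and 4.07 for SAG to GP (1.28 to 7.02). Without plate 2 of SAG the calls were kept at -3.97, 2.32 and 1.5. Cx3cl1 was also called lower in PF than in GP at -2.46 (-3.02 to -0.08), which without plate 2 of GP stood at -0.15 and was not a call.

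The share of SAG cells with Cx3cl1 was alike on the 2 plates, at 10% (2.11 to 26.5) on plate 1 and 10.7% (4.04 to 21.9) on plate 2, while the amount was not. Cells with a read held 16.2 to 353 RPM on plate 1 and 199 to 4292 RPM on plate 2, the plate with the Rn45s excess and few genes per cell. Whether that excess has a part in the amount was not tested. Elsewhere 4.05% of COR cells (0.844 to 11.4), 3.85% of GP cells (0.800 to 10.8) and 1.15% of PF cells (0.0291 to 6.24) had a read. Of the 8 genes of endothelium, another cell type that makes fractalkine, 5 had no read in any of the 325 cells. Their absence from the 16 cells therefore says nothing. Cdh5 and Egfl7 were read in 1 of the 16 cells each, and Kdr, itself rare, in 0. The endothelial genes summed to 3.20 RPM on plate 1 of SAG and 25.7 on plate 2. Whether endothelial cells had a part in the Cx3cl1 reads was not tested.

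Few cells had reads of several of these genes. Csf1 shared 8 cells with Tnfsf11, where the product of shares gives 3.97, 5 with Tnfrsf11b (2.91), 6 with Cx3cl1 (4.23), 4 with Il34 (3.18) and 3 with Ccl2 (0.794). Tnfsf11 shared 1 cell with Cx3cl1, which was the SAG cell of plate 1 with 72 and 95 reads, and 0 with Il34. Tnfrsf11b shared 1 cell each with Ccl2 and Cx3cl1, and Il34 shared 1 each with Ccl2 and Cx3cl1. These overlaps are counts over cells from shared plates and were not tested.

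The receptors through which these ligands act on osteoclast precursors and monocytes were nearly unread, while other proteins that bind RANKL or IL-34 were read more widely. Tnfrsf11a (RANK) was read in 1 cell with 8 reads, Csf1r in 4 cells, Ccr2 in 3, Cx3cr1 in 1, and Tnfsf10 (TRAIL, another ligand of OPG) and Ackr2, a chemokine scavenger, in 0 of 325. Lgr4, a membrane receptor that also binds RANKL, was read in 156 cells (48%) and Sdc1 (syndecan-1, a proteoglycan that binds IL-34) in 151 (46.5%). Of the 9 genes of this list in the tables, 3 could be called, and Sdc1 was called lower in all 3 sutures than in GP, at 128 RPM in PF, 126 in SAG and 140 in COR against 324 in GP. The SAG call ended without plate 2 of SAG, where the log2 ratio was -0.36. Ptprz1, another receptor for IL-34, was read in 34 cells (10.5%) and was called lower in COR than in GP, at 10.3 against 60.6 RPM, and no gene of the list was called among the sutures.

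Among the proteases that can release RANKL or CSF1 from the cell surface, Mmp14 was read in 282 cells (86.8%), Adam10 in 169 (52%), Adam19 in 65 (20%) and Adam17 in 62 (19.1%). All 4 could be called. Adam17 was lower in PF, at 24.5 RPM, than in SAG at 70.2 and in GP at 121. Adam10 was lower in SAG, at 55.7 RPM, than in COR at 113. Adam19 was higher in SAG at 33.6 RPM than in GP at 12.8, and this call ended without plate 2 of SAG at a log2 ratio of 0.87. Mmp14 was called in no pair, and the median log2 ratio of the list ran from -0.65 (PF to SAG) to 0.49 (PF to GP).

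Receptors for hormones and cytokines that induce RANKL ranged from Il11ra1, read in 163 cells, and Pth1r, in 133, down to Esr1 in 13, Ptger4 in 4 and Ptger2 and Il6ra in 3 each. Of 12 such genes 9 could be called. Between PF and SAG 3 of the 9 were called, 2 higher and 1 lower in PF, against 29.2% of all genes. Between PF and GP it was 2 against 16.2%, and between PF and COR 1 against 11.9%, so these counts were near the share over all genes. Pth1r, the parathyroid hormone receptor, ran from 231 RPM in PF through 174 in COR and 88.8 in GP down to 42.9 in SAG, and it was called higher in PF than in SAG and GP and higher in COR than in SAG, the last of which ended without plate 2 of SAG at -0.69. Vdr, the vitamin D receptor, ran from 120 RPM in PF through 70.4 in COR and 60.9 in SAG down to 22.6 in GP, and was called lower in GP than in all 3 sutures. Il11ra1, the receptor of IL-11, was called lower in SAG, at 87.3 RPM, than in PF and GP at 490 and 489. Il6st, the shared signalling chain of the IL-6 family, was called higher in PF at 201 RPM than in COR at 90.8. Il6ra, the receptor of IL-6, was called higher in SAG than in each other tissue but had reads in 2 SAG cells and 1 GP cell, and the call against GP ended without plate 2 of SAG at 0.90. Over the 9 genes, the median log2 ratio of PF to SAG was 0.96, PF to COR 0.54 and PF to GP 0.63, beside 0.30, 0.01 and 0.09 over all genes.

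Of 16 other stromal signals that act on osteoclasts, 8 could be called. Between PF and SAG and between SAG and GP 4 of the 8 were called, against 29.2% and 30.7% of all genes, and in each of SAG to COR, PF to GP and COR to GP 2 were, against 31.5%, 16.2% and 13.4%. Sema3a, a semaphorin that restrains osteoclasts, was low in SAG at 7.09 RPM in 3 cells. PF stood at 79.3, COR at 84.7 and GP at 143, and all 3 were called against SAG, also without plate 2 of SAG at log2 ratios of 2.13, -2.23 and -2.97. Sfrp1, a secreted Wnt antagonist, was called lower in SAG than in PF and GP, at 6.68 RPM against 57 and 65.6. Cxcl12, a chemokine for blood progenitors, was called lower in SAG, at 75.5 RPM, than in PF at 641 and in GP at 713, where 1 cell gave 83.1% of the reads. Wnt16, a Wnt that lowers osteoclast formation, was read in 9 GP cells, 1 COR cell and 0 PF and SAG cells, and was called higher in GP than in each suture. Wnt5a, a Wnt that raises RANK on precursors, was called higher in GP at 60.1 RPM than in PF at 28.8 and COR at 14. Cxcl1, a neutrophil chemokine, was called higher in SAG, where it was read in 5 cells, than in PF, and Efnb2, an ephrin, lower in SAG than in COR, the latter ending without plate 2 of SAG at -0.39. Tnf, Il1b and Ccl9 had 0 reads in 325 cells. No gene of this list was called between PF and COR, and 0 were called higher in either PF, SAG or COR than in GP.

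**Figure D4:**
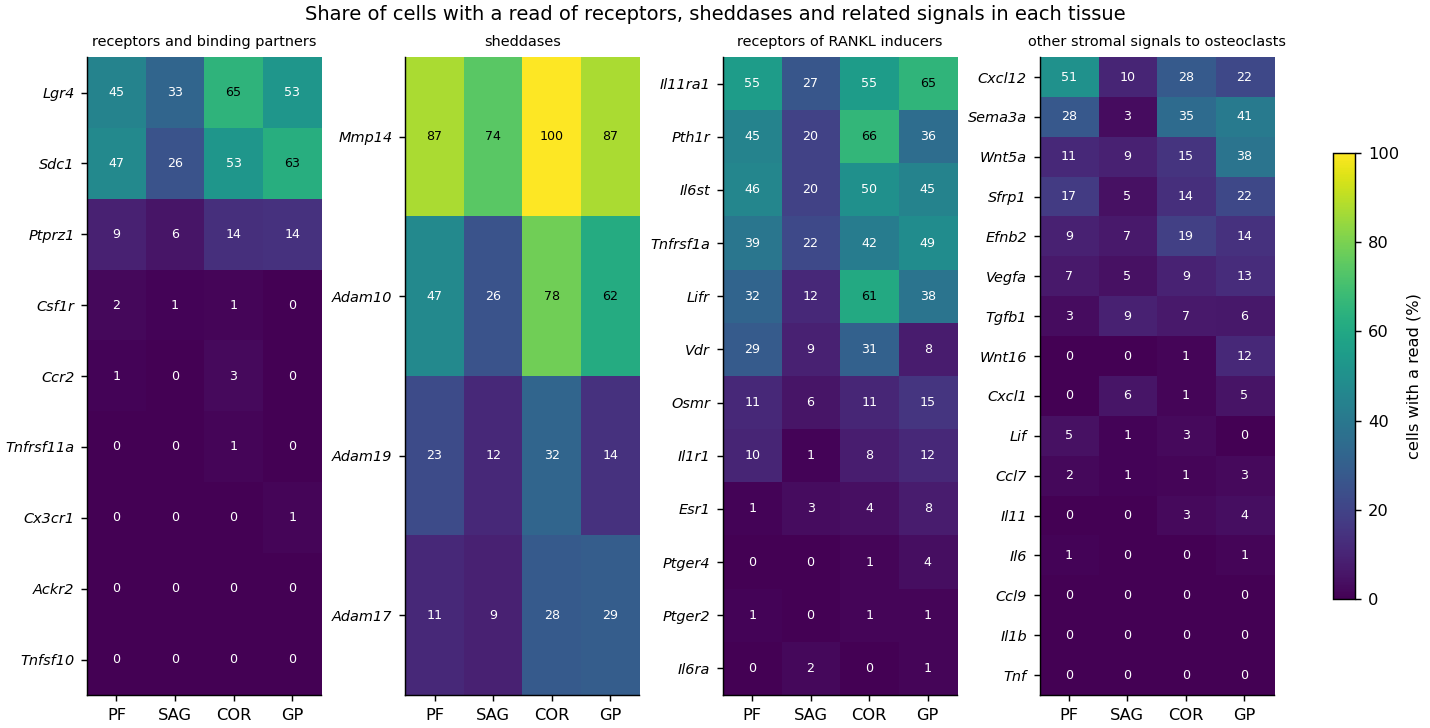
Percent of cells with a read (colour and number, 0 to 100) of the genes of 4 lists, rows, in each tissue, columns. The receptors Tnfrsf11a, Csf1r, Ccr2 and Cx3cr1 lie near 0 in every tissue, Mmp14 lies between 74.4% and 100%, and Lgr4 and Sdc1 lie between 25.6% and 64.9%.

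The cells with reads of each gene were set beside 92 marker genes of cell types. The markers named here were chosen after their values were seen, as those with the widest gaps among the 92 or as defining genes of a list, so the gaps are descriptions. The markers of each cell type were also summed in each cell and ranked within its plate, since single markers and their list did not always go the same way. The 15 cells with Tnfsf11 reads carried Mmp13, a collagenase of hypertrophic chondrocytes and osteoblasts, in 12 (80%, interval 51.9 to 95.7), against 84 of 310 other cells (27.1%). The 12 cells were 4 of SAG, 4 of GP, 2 of COR and 2 of PF. The shares of their own plates would give 4.75 cells. Without plate 2 of SAG it was 10 of 12 cells against 28%, and after thinning 10 of 13 against 25.8%. Here and below, thinned cells were still grouped by reads of the gene at full depth, and 12 kept a Tnfsf11 read after thinning. Depth therefore still had a part in which cells were grouped as having a read, and thinning does not remove it from these gaps.

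The same cells had reads of Mmp9, a gelatinase listed among the osteoclast markers, in 9 of 15 (60%, 32.3 to 83.7) against 17.1% of the others. The summed osteoclast markers lay above the middle of the plate in 10 of the 15, with a median of 918 RPM against 635. They reached 96702 RPM in the SAG cell with 72 Tnfsf11 reads and 7063 RPM in the GP cell with 255. Mmp9 is itself part of this sum, so the sum in part restates the Mmp9 count. Runx2 was read in 12 (80%, 51.9 to 95.7) against 44.2% and Ibsp (bone sialoprotein) in 7 (46.7%, 21.3 to 73.4) against 21.3%. Phex, an osteoblast and osteocyte peptidase, was read in 5 (33.3%, 11.8 to 61.6) against 5.48%. The Phex gap was narrower after thinning, at 2 of 13 cells (15.4%) against 5.45%. Ibsp was read in 2 PF, 1 COR and 4 GP cells with Tnfsf11 and in 0 of the 5 SAG cells. Col10a1, the collagen of hypertrophic chondrocytes, was read in 3 of the 15, all of GP, and the tendon genes Tnmd and Scx in 0 of 15, against 33.2% and 15.2% of the others. The sum of the 3 hypertrophic chondrocyte markers, Mmp13 among them, lay above the middle of the plate in 12 of the 15 cells. These were the cells with Mmp13 reads, so the sum restates that count and is not a further result. The summed osteoblast markers lay above the middle in 10, although their median over cells was 62800 RPM against 83369 in the others. The summed fibroblast and tendon markers did so in 3 of the 15 each. These cells were not deeper than the rest: their median gene number lay at the 32.1 percentile of their own plates, and 5 of 15 lay above the middle.

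The 11 cells with Tnfrsf11b reads shared Lum, a proteoglycan of fibroblasts and osteoblasts, in 11 of 11 (71.5 to 100%) against 74.5%, and Sox9, the regulator of chondrocytes, in 8 (72.7%, 39 to 94) against 41.4%. Immediate early genes were also frequent, with Jund in 11, Jun in 8 and Fos in 6 of the 11, against 51.6%, 34.4% and 30.6% of the others. These cells were deep, with a median gene number at the 86.7 percentile of their plates and 11 of 11 above the middle. After thinning the shares were 100% against 73.3% for Lum, 81.8% against 48.7% for Jund, 63.6% against 34.7% for Jun, 63.6% against 38.6% for Sox9 and 54.5% against 29.2% for Fos. Without plate 2 of SAG, Sox9 was read in 7 of 10 cells against 33.2%. The summed chondrocyte markers did not follow Sox9, with a median of 246 RPM against 511 and 4 of the 11 cells above the middle of their plates, while 9 of 11 were above it for the immediate early genes. Nor did the fibroblast markers, Lum among them, follow Lum: their median was 9513 RPM against 11885, with 6 of the 11 above the middle. For the osteoblast markers the median was 73021 RPM against 82320, with 5 of the 11 above it. The Mmp13 share was 27.3% of the 11 cells against 29.6%.

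Among the 12 cells with Il34 reads, Runx2 was read in 2 of 12 (16.7%, 2.09 to 48.4) against 47% of the others, and the osteoblast genes Ibsp, Bglap and Dmp1 in 0 of 12 against 23.3%, 24% and 9.27%. Notch3, a receptor of mural cells, was read in 5 (41.7%, 15.2 to 72.3) against 6.39%, Pdgfrb in 8 (66.7%, 34.9 to 90.1) against 33.5%, and Acta2 in 5 (41.7%, 15.2 to 72.3) against 22.4%. The Notch3 cells were 3 of COR, 1 of PF and 1 of GP, and after thinning 4 of 12 remained (33.3%) against 5.80%. The summed osteoblast markers did not follow these genes, with a median of 82988 RPM in the Il34 cells against 81648 and 6 of 12 above the middle of their plates, and for the pericyte and smooth muscle markers 7 of 12 lay above it. No Il34 cell came from SAG, and without plate 2 of SAG the cells with no Il34 read had Notch3 in 6.23% and Runx2 in 49.8%.

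The 16 cells with Cx3cl1 reads had reads of Col2a1 in 9 (56.2%, 29.9 to 80.2) against 25.6% and of Acan in 12 (75%, 47.6 to 92.7) against 53.1%. The shares of their own plates would give 6.85 cells with Col2a1 and 9.63 with Acan, and for the summed chondrocyte markers 8 of the 16 lay above the middle of their plates. After thinning, Col2a1 was read in 6 of 15 (40%) against 25.6%, and without plate 2 of SAG in 6 of 10 against 18.5%. Ibsp and Tnmd were read in 0 of 16, against 23.6% and 33.3%. Fos was read in 10 (62.5%, 35.4 to 84.8) against 29.8%, where the plates' own shares would give 6.39. The summed immediate early genes had a median of 1361 RPM against 283. Ranked within plates they did not follow Fos: 7 of the 16 cells lay above the middle, at a median percentile of 44 against 51.7.

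Of single osteoblast genes, the 86 cells with Csf1 reads had Runx2 in 59.3% (48.2 to 69.8) against 41% of the 239 others, Sp7 (osterix) in 44.2% (33.5 to 55.3) against 27.2%, Alpl in 69.8% (58.9 to 79.2) against 49.8% and Mmp13 in 44.2% (33.5 to 55.3) against 24.3%. Acta2 was read in 33.7% (23.9 to 44.7) against 19.2%. Thbs4, a tendon matrix gene, was read in 0 of 86 against 7.53%, and the immediate early gene Nr4a1 in 14% (7.42 to 23.1) against 33.5%. Summed and ranked within plates, the lists of these genes were near the middle in these cells. For the osteoblast markers 45 of 86 lay above the middle, for the immediate early genes 44 and for the pericyte and smooth muscle markers 46. For the hypertrophic chondrocyte markers, Mmp13 among them, it was 40, and for the tendon markers, Thbs4 among them, 39. Without plate 2 of SAG the Runx2 shares were 62% and 42.6%. Cells with Csf1 had a median of 3312.5 genes and those without 2495. After thinning, the gaps were 54.2% against 36.1% for Runx2, 44.6% against 27.8% for Sp7, 69.9% against 47.8% for Alpl, 41% against 22.9% for Mmp13 and 34.9% against 17.1% for Acta2.

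**Figure D5:**
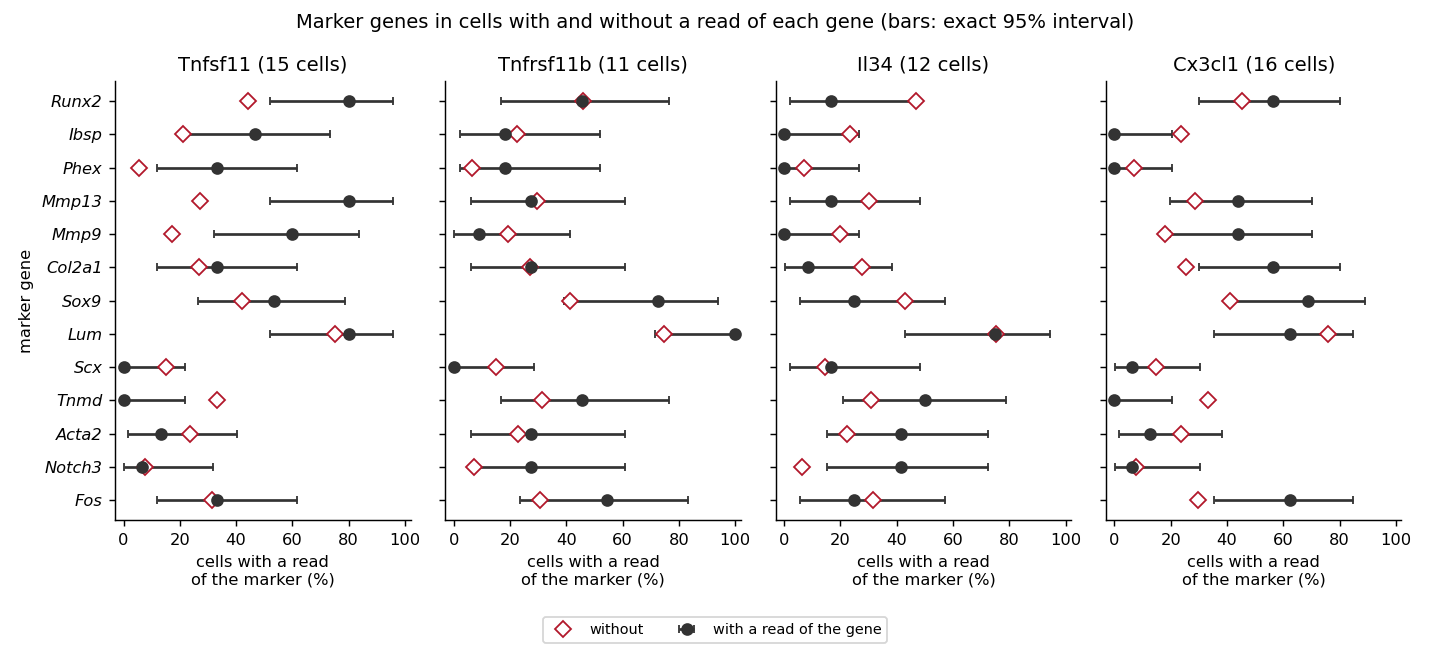
Percent of cells with a read of 13 marker genes (x axis) among cells with a read of Tnfsf11, Tnfrsf11b, Il34 or Cx3cl1 (black points, bars exact 95% binomial intervals) and among all other cells (open diamonds). Mmp13 lies at 80% against 27.1% in the Tnfsf11 panel, and Notch3 at 41.7% against 6.39% in the Il34 panel.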

How the data were processed

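Single cells were profiled by full-length RNA-seq with no molecular identifiers. The deposited tables hold raw read counts per gene symbol and cell, which the authors made with STAR 2.5.3a and HTSeq on mm9, per the submitters' processing notes. These also name Seurat 2.3.0 and R 3.4.4. The annotation and strand setting are not given in the sources used here. The 8 tables (2 plates for each tissue) were joined, and 35 of 360 cells were left out. One cell whose description names another tissue than its title was kept as SAG. The 6 genes, the lists and the markers were chosen with earlier results of these data known.

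Levels were summed reads per 1000000 reads other than Rn45s. The text names the 6 genes, genes of 4 pathway lists that were called or had the most or fewest reads, and the 5 genes most like any member read in at least 20 cells. No doublet caller was run, and 0 cells had identical counts. Alternatives covered scaling (TMM from edgeR 4.0.16), filters, thinning, pseudocounts and leaving out plates or cells. Python 3.11.15, numpy 2.4.6, pandas 2.3.3, scipy 1.17.1, matplotlib 3.10.9 and R 4.3.3 were used.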

Additional observations from a re-analysis of the deposited data

Results flagged for a closer look

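Of the 35 cells that did not pass the filter, 1 had reads of any of the 6 genes: a GP cell of plate 2 with 71 Csf1 reads, 130943 reads in all and 309 genes. It was singled out because it carries signal in data that no comparison uses. With no filter on cells, every call named above for Tnfsf11, Tnfrsf11b, Il34 and Cx3cl1 was kept.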

How the results depend on the processing

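No paired analysis was possible because each tissue is 1 sample and no result comes from a test. Of the 10 calls among the 6 genes, none turned its direction under the 17 alternatives tried for each, and 4 were kept under all of them: Cx3cl1 in SAG against PF, COR and GP, and Tnfsf11 in PF against SAG. With a pseudocount of 10 RPM the calls of Tnfrsf11b in PF against SAG (0.71), COR (0.70) and GP (0.77), of Cx3cl1 in PF against GP (-0.64) and of Il34 in SAG against GP (-0.69) ended. Without the richest cell of each tissue those of Tnfrsf11b in PF against GP (1.79) and of Il34 in SAG against GP (-1.21) ended, since the plates no longer had 1 sign. The stricter filter (1500 genes, 50000 reads) kept 237 cells and 0 of SAG plate 2, and ended that of Tnfrsf11b in PF against SAG (0.43). Counting Rn45s ended that of Tnfsf11 in SAG against COR (0.07), and TMM scaling ended none.

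The log2 ratio of Tnfsf11 to Tnfrsf11b reads, -3.36 in PF and 2.44 in SAG, was -4.84 and 0.63 with the stricter filter and -4.23 and 3.46 without the richest cell of each gene. Leaving out plates gave -2.85 in PF, 0.63 to 7.15 in SAG and 3.12 in GP (2.14 with both plates). No ratio could be formed for PF, COR or GP without plate 2, or for COR without its richest cell, since 1 or both genes then had 0 reads.

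Leaving out a plate of either tissue compared, so that fewer plate ratios must have 1 sign, raised the count of called genes, except for SAG to COR without SAG plate 2 (3320 from 3363). The ranges over all 8 plates were 3127 to 7827 for PF to SAG, 1245 to 3358 for PF to COR, 3320 to 7944 for SAG to COR, 1705 to 3784 for PF to GP, 3260 to 7959 for SAG to GP and 1409 to 3636 for COR to GP. A pseudocount of 10 RPM gave 614 for PF to COR, 986 for PF to GP and 736 for COR to GP, from 1268, 1728 and 1433. With no filter on cells, the alternative that could add such a cell, the count of cells with both genes was also 0. The comparisons of pathway genes and markers without plate 2 of SAG, and of markers in thinned cells, were added after seeing the data. The number of cells with a read, 16 or fewer for all genes but Csf1, limits every comparison. Thinning to 100000 reads left 288 cells, 12 of them still with a read of Tnfsf11, 11 of Tnfrsf11b, 12 of Il34, 3 of Ccl2 and 14 of Cx3cl1. The marker comparisons in thinned cells kept the groups formed at full depth.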
